A study of Mus musculus with 12 samples.

Results

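The 10 genes described here encode immunoglobulin-like receptors of the myeloid cell surface: Pirb, Lilrb4a, Cd300a, Cd300lf, Pilra, Ceacam1, Sirpa, Tarm1, Treml4 and Cd200r1. They are 10 of the 54532 genes in the count table and were taken by gene name. The list was put together with earlier results of the same 12 libraries known, so the receptors were in part selected on the contrasts tested below. Their levels, fold changes and p-values are therefore given as a description, and no statement about the family as a whole is drawn from them.

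Paired receptors come in families in which closely related extracellular domains are joined either to an inhibitory or to an activating signalling part. Inhibitory members carry tyrosine motifs (ITIMs) in a long cytoplasmic tail, which recruit the phosphatases SHP-1 and SHIP-1 when a Src-family kinase phosphorylates them. Activating members have a short tail and a charged residue in the membrane, through which they bind an adaptor with an activation motif, FcRγ or DAP12. On eosinophils such receptors are known to set the threshold for degranulation, adhesion and survival.

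The cells were splenic eosinophils sorted as SSC-high, 4get-positive cells from IL-5tg_4get/C57BL/6 mice. The IL-5 transgene drives eosinophilia, and in 4get animals a GFP reporter marks cells that express IL-4, so all 4 groups share both alleles. Sorted cells were cultured for 4 hours in 4 groups of 3 libraries each. The co-treated group received anti-Siglec-F (clone E50-2440, 5 µg/mL) together with recombinant mouse IL-33 (10 ng/mL). The other groups received IL-33 alone, anti-Siglec-F alone, or rat IgG2a isotype control antibody. Siglec-F is an inhibitory sialic acid-binding receptor of mouse eosinophils, and IL-33 is an alarmin cytokine that activates them through the receptor ST2. The labels give no time other than 4 hours, do not say whether the IL-33 group also held isotype antibody, and leave unsaid whether a group's 3 libraries stem from different mice or cultures. The p-values below therefore reflect library-to-library spread, part or all of which may be technical.

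Total counts per library lay between 11686603 and 17137988. The 10 eosinophil markers checked summed to 5676 to 14010 CPM (counts scaled to library size) in co-treated libraries, 4586 to 7928 with IL-33, 6145 to 10806 with anti-Siglec-F and 5897 to 10878 with isotype. Over isotype, 0 of the 10 had a positive log2 fold change with IL-33 (median -0.42). With co-treatment 6 were positive (median 0.14), and with anti-Siglec-F 4 (median -0.07). None of the 10 had an edgeR adjusted p under 0.05 in these comparisons. In the co-treated group 2 libraries stood apart: replicate 2 had 15555 genes with a count and replicate 3 had 29990, against 19138 to 24485 in the other libraries. The share of counts on ribosomal protein genes was 3.08% and 3.57% in these 2 libraries, and 1.52 to 2.43% elsewhere. The co-treatment calls of the receptors, and of the relatives, adaptors and ligand named, are also given without them. Such a fit holds 1 co-treated library, replicate 1, which is assumed to vary as the libraries of the other groups do, so it shows what that library gives and is no check on replicates.

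The 10 receptors divide by what their sequences encode. The longest coding sequence of each gene (GENCODE release 21 for mouse, GRCm38, which has the coordinates of mm10) was translated, and the stretch after its most hydrophobic window of 19 residues was searched for the ITIM pattern. In this pattern, isoleucine, leucine, valine or serine lies 2 places before a tyrosine, and isoleucine, leucine or valine lies 3 places after it. Pirb and Sirpa had 3 such motifs, Lilrb4a, Cd300a and Cd300lf had 2, and Pilra and Ceacam1 had 1. Tarm1, Treml4 and Cd200r1 had none, and each of these 3 had 1 basic residue (lysine, arginine or histidine) in the hydrophobic window. In a window begun a few residues earlier, counting only lysine and arginine, Pirb, Lilrb4a and Cd300a had 1 as well. Tails after the hydrophobic window measured 178 residues in Pirb, 121 in Sirpa and 85 in Pilra, against 41 in Treml4 and 19 in Tarm1. For Cd200r1, which is known to inhibit through other tyrosines and the adaptor Dok2, the tail measured 65 residues with 3 tyrosines. The 18 bases coding for the 6 residues of the motif nearest the end of each ITIM receptor are printed below, coding strand, 5′ to 3′, with the tyrosine codon in capitals, since this is the element that the search found in 7 of the 10 receptors.
Pirb (chr7:3712696-3712713, minus strand): agtgtaTATgctactctg
Lilrb4a (chr10:51496194-51496211, plus strand): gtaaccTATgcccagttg
Cd300a (chr11:114901147-114901164, plus strand): cttcacTATtcatccgtg
Cd300lf (chr11:115117112-115117129, minus strand): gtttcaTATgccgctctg
Pilra (chr5:137823571-137823588, minus strand): atcgtgTATgcttccatc
Ceacam1 (chr7:25463874-25463891, minus strand): gtcgcaTACactgtcctg
Sirpa (chr2:129630149-129630166, plus strand): tcagagTATgctagtgtc

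In isotype-treated eosinophils the ITIM-bearing receptors held the upper levels among the 10, apart from Ceacam1. This order does not extend to their relatives. In CPM per kilobase, Lilra6, Cd300lb and Cd300ld, in which the search found no ITIM, averaged 178, 175 and 114 with isotype. On the scale of CPM per kilobase of gene length, Sirpa, the receptor for the broadly expressed ligand CD47, averaged 339 ± 5.24 (SD, n = 3, as for all group values) and lay above 99.3% of the 14547 genes tested. Cd300lf, which in mice binds ceramide and serves murine norovirus as its entry receptor, averaged 186 ± 10.9. Pirb, a receptor for MHC class I, averaged 130 ± 20.4. The ranges of Sirpa, Cd300lf and Pirb did not overlap with each other or with the next of the 10 receptors in order. Pilra at 70.1 ± 22.0, Lilrb4a at 54.1 ± 17.3 and Cd300a at 45.0 ± 4.58 formed a second tier whose libraries overlapped. Tarm1 averaged 18.1 ± 2.02, Treml4 13 ± 2.20 and Ceacam1 9.47 ± 2.34, and here the Treml4 range overlapped that of Ceacam1 but not that of Tarm1. Cd200r1 was the lowest at 1.72 ± 0.985 and lay above 34.9% of genes. All 10 passed the expression filter.

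**Figure D1:**
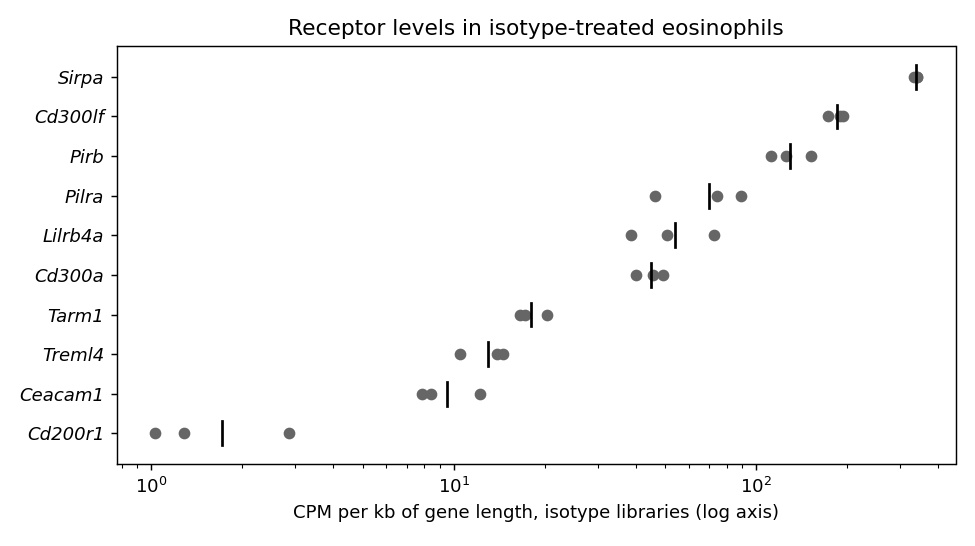
Level of each receptor in the 3 isotype libraries (points) with the group mean (vertical bar), in CPM per kilobase of gene length on a log axis. Sirpa stood at 339 and Cd200r1 at 1.72, and the points of Pilra, Lilrb4a and Cd300a overlapped.

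Set against isotype, co-treatment with anti-Siglec-F and IL-33 raised 5 of the 10 receptors: Tarm1, Treml4, Pilra, Ceacam1 and Cd300a. IL-33 alone raised 4 of them, all but Cd300a. With anti-Siglec-F alone none was called, and no receptor was called lower in any comparison. Of all genes tested, 5.47% were called higher with co-treatment, 1.46% with IL-33 and 0% with anti-Siglec-F. Pirb, Sirpa, Cd300lf, Lilrb4a and Cd200r1 were not called in these 3 comparisons. Levels are CPM with TMM-scaled library sizes, and calls are at an adjusted p under 0.05 by edgeR's quasi-likelihood test with Benjamini-Hochberg adjustment over all 14547 genes. The 3 comparisons share the isotype libraries. In bulk RNA, more cells of a kind and more RNA per cell cannot be told apart.

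**Figure D2:**
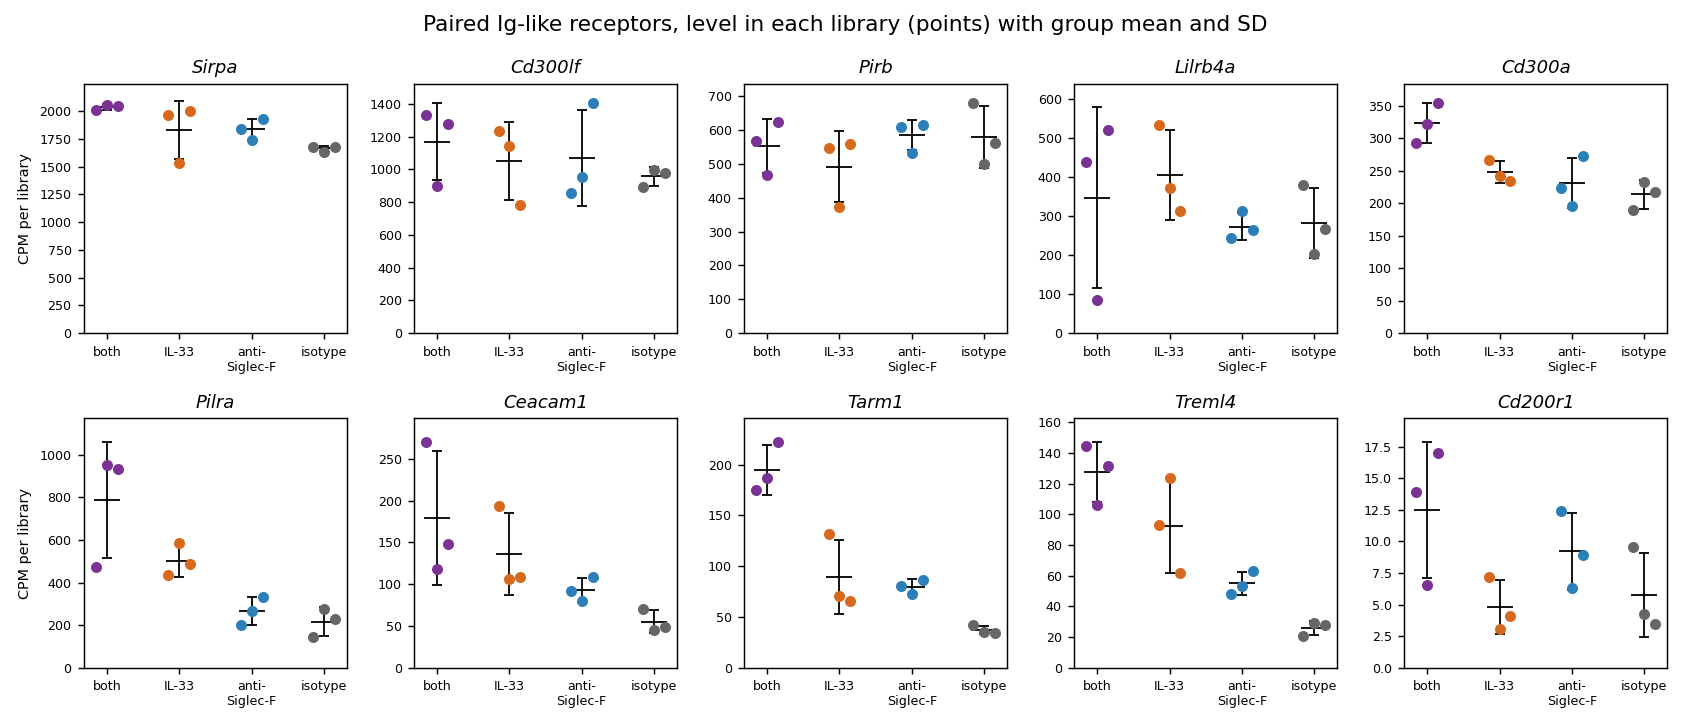
CPM of each receptor in every library (points), with the group mean and SD (bars), for the co-treated, IL-33, anti-Siglec-F and isotype groups from left to right; each panel starts at 0. Tarm1 and Treml4 were higher in all 3 treated groups than in any isotype library, while Pirb overlapped throughout.

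Tarm1 (chr7:3486500-3502624, minus strand) encodes an activating receptor that signals through FcRγ. It had 175.5, 187 and 222 CPM in co-treated libraries, 131, 70.7 and 65.5 with IL-33, 80.2, 72.8 and 86.8 with anti-Siglec-F, and 42.1, 35.6 and 34.3 with isotype. Every library of every treated group lay above every isotype library, and the co-treated libraries lay above all others. The log2 fold change over isotype was 2.38 ± 0.238 (SE) with co-treatment (edgeR quasi-likelihood, adjusted p = 8.34e-05) and 1.26 ± 0.231 with IL-33 (edgeR quasi-likelihood, adjusted p = 0.0106). With anti-Siglec-F alone it was 1.10 ± 0.230, unadjusted p = 0.000316, and the edgeR quasi-likelihood adjusted p was 0.766 in the fit over all 12 libraries. The IL-33 call was kept in 4 of the 6 fits that left out 1 library and lost without isotype replicate 2 or 3, with an edgeR adjusted p of at most 0.0706. All 6 such fits kept the co-treatment call, and with co-treated replicate 1 alone the log2 fold change was 2.29 (edgeR adjusted p = 0.000986).

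Treml4 (chr17:48264295-48275360, plus strand) is a TREM-like receptor that signals through DAP12 and is known in mouse splenic macrophages and dendritic cells. It had 145, 106 and 131 CPM in co-treated libraries, 92.9, 123.5 and 61.6 with IL-33, 48.3, 53.6 and 63.1 with anti-Siglec-F, and 20.9, 29.1 and 27.7 with isotype. All 9 treated libraries exceeded the 3 isotype libraries, and the co-treated and IL-33 libraries overlapped with each other. Over isotype its log2 fold change was 2.30 ± 0.239 with co-treatment (edgeR quasi-likelihood, adjusted p = 0.000114) and 1.84 ± 0.236 with IL-33 (edgeR quasi-likelihood, adjusted p = 0.000766). With anti-Siglec-F alone it was 1.09 ± 0.233 (edgeR quasi-likelihood, adjusted p = 0.795). The IL-33 and the co-treatment calls each held in all 6 fits that left out 1 library, and with co-treated replicate 1 alone the co-treatment log2 fold change was 2.54 (edgeR adjusted p = 0.000317).

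Pilra (chr5:137821952-137836281, minus strand) is the inhibitory member of the paired Ig-like type 2 receptors, which bind sialylated O-glycans on proteins such as CD99. It had 474, 953 and 934 CPM in co-treated libraries, 433, 587 and 488.5 with IL-33, 202.5, 268 and 334 with anti-Siglec-F, and 143, 277 and 229.6 with isotype. The IL-33 and co-treated libraries all lay above the isotype range, whereas the anti-Siglec-F libraries overlapped it. Over isotype its log2 fold change was 1.86 ± 0.298 with co-treatment (edgeR quasi-likelihood, adjusted p = 0.00187) and 1.22 ± 0.293 with IL-33 (edgeR quasi-likelihood, adjusted p = 0.0479). All 6 fits that left out 1 library kept the co-treatment call, with an edgeR adjusted p of at most 0.0118. Co-treated replicate 1 was the lowest of its group, and with it as the single co-treated library the log2 fold change was 1.18 (edgeR adjusted p = 0.0550), which missed the threshold. None of the 6 fits of the IL-33 comparison that left out 1 library kept its call, with edgeR adjusted p-values of 0.055 to 0.188, while with the replicate number as a block it was called (edgeR adjusted p = 0.00377).

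Ceacam1 (chr7:25461707-25477603, minus strand) is a homophilic adhesion receptor with an ITIM. It had 269.9, 119 and 148 CPM in co-treated libraries, 193, 107 and 109 with IL-33, 91.4, 79.8 and 108 with anti-Siglec-F, and 70.6, 45.6 and 48.9 with isotype. All 9 treated libraries again exceeded the isotype libraries, and replicate 1 was the highest in the co-treated, IL-33 and isotype groups. Its log2 fold change was 1.70 ± 0.311 with co-treatment (edgeR quasi-likelihood, adjusted p = 0.00439), 1.31 ± 0.308 with IL-33 (edgeR quasi-likelihood, adjusted p = 0.0429) and 0.76 ± 0.306 with anti-Siglec-F (edgeR quasi-likelihood, adjusted p = 1). The IL-33 call was kept only without IL-33 replicate 3 among the 6 fits that left out 1 library. With co-treated replicate 1, the highest of its group, as the single co-treated library, the log2 fold change was 2.35 (edgeR adjusted p = 0.00107), and all 6 fits that left out 1 library kept the co-treatment call.

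Cd300a (chr11:114890041-114904654, plus strand), an ITIM receptor for phosphatidylserine and phosphatidylethanolamine on dying cells, moved least among the 5 called. It had 293, 322 and 354 CPM in co-treated libraries, 267, 242 and 234 with IL-33, 223, 196 and 272 with anti-Siglec-F, and 190.1, 233 and 217 with isotype. The co-treated libraries lay above all others, and the IL-33 libraries lay just above the isotype range. Its log2 fold change was 0.60 ± 0.157 with co-treatment (edgeR quasi-likelihood, adjusted p = 0.0288), and 0.22 ± 0.156 with IL-33 (edgeR quasi-likelihood, adjusted p = 0.658). The call was lost without co-treated replicate 2 or 3 or without isotype replicate 1 or 3, with an edgeR adjusted p of up to 0.127, and with co-treated replicate 1 as the single co-treated library it was 0.217.

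**Figure D3:**
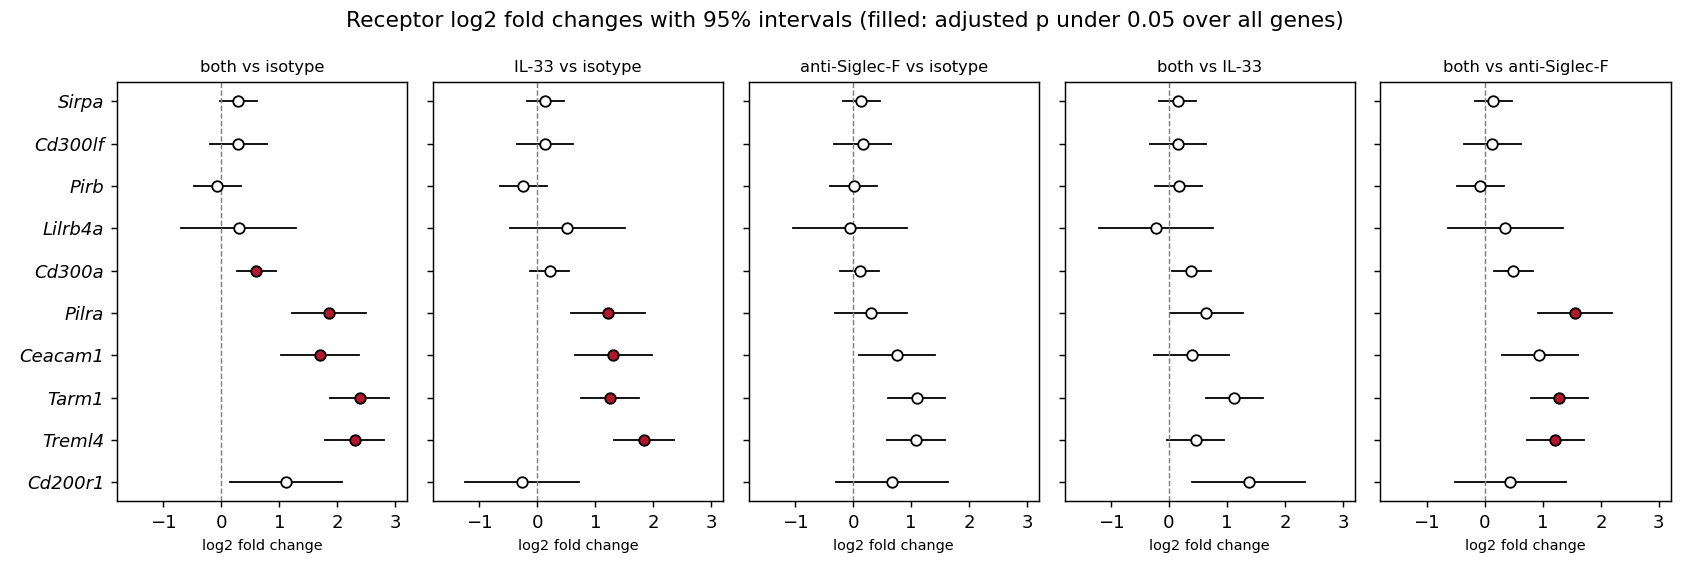
log2 fold change of each receptor with its 95% interval in 5 comparisons, from edgeR's quasi-likelihood fit; filled points have an adjusted p under 0.05 over all genes tested. Filled points stood at Tarm1, Treml4, Pilra, Ceacam1 and Cd300a with co-treatment over isotype, at 4 of these with IL-33 over isotype and at 3 with co-treatment over anti-Siglec-F.

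The other 5 receptors were not called against isotype, and their intervals show which changes the data still allow. Sirpa (chr2:129592835-129632228, plus strand) had 2009, 2055 and 2046 CPM in co-treated libraries, 1968, 1532.5 and 1998 with IL-33, 1839.6, 1739 and 1933 with anti-Siglec-F, and 1677, 1634 and 1680.4 with isotype. Co-treated libraries were all above the isotype libraries by a small step, with a log2 fold change of 0.29 (95% interval -0.03 to 0.61), and the 3 isotype libraries were nearly equal. The 95% intervals over isotype were -0.18 to 0.46 with IL-33 and -0.18 to 0.46 with anti-Siglec-F.

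Cd300lf (chr11:115116214-115133992, minus strand) had 1332, 901.5 and 1276 CPM in co-treated libraries, 1232.5, 1141 and 781.5 with IL-33, 856, 954 and 1407 with anti-Siglec-F, and 893.5, 999 and 981 with isotype. One library of each treated group lay apart from its other 2, and all groups overlapped. Co-treatment gave a log2 fold change of 0.29 (95% interval -0.20 to 0.78).

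Pirb (chr7:3711409-3720391, minus strand) had 569, 467 and 623 CPM in co-treated libraries, 547, 372 and 558 with IL-33, 608, 533 and 615 with anti-Siglec-F, and 680.2, 501 and 561 with isotype. The groups overlapped, and Pirb was the receptor with the smallest log2 fold change on co-treatment, -0.07 (95% interval -0.48 to 0.34). With IL-33 the log2 fold change was -0.24 (95% interval -0.65 to 0.17).

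Lilrb4a (chr10:51490956-51496611, plus strand), the mouse gp49B receptor for integrin αvβ3 and fibronectin, had 438, 84.8 and 519 CPM in co-treated libraries. It had 534, 372 and 312 CPM with IL-33, 243, 312 and 264 with anti-Siglec-F, and 380.2, 202 and 266 with isotype. Co-treated replicate 2 was the lowest of the 12 libraries, and it is also the library with the fewest genes detected. The log2 fold change with IL-33 was 0.52 (95% interval -0.47 to 1.51; edgeR adjusted p = 0.744). Each IL-33 library lay above the isotype library with the same replicate number. A fit of only these 2 groups blocked by replicate number, chosen after seeing the data, gave 0.55 (edgeR adjusted p = 0.0498). No other fit called it: without the block these 2 groups gave an edgeR adjusted p of 0.31, and the block over all libraries gave 0.671. Whether the replicate numbers pair libraries is not known.

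Cd200r1 (chr16:44765736-44794978, plus strand), the receptor for CD200, had 13.9, 6.56 and 17 CPM in co-treated libraries, 7.18, 3.07 and 4.12 with IL-33, 12.4, 6.34 and 8.94 with anti-Siglec-F, and 9.53, 4.28 and 3.45 with isotype. Replicate 1 was the highest in the IL-33, anti-Siglec-F and isotype groups, and the groups overlapped. Co-treatment gave a log2 fold change of 1.11 (95% interval 0.15 to 2.08; edgeR quasi-likelihood, adjusted p = 0.133). With the replicate block, and without the expression filter, it was called (edgeR adjusted p = 0.0389 and 0.0144). DESeq2 and voom did not call it (adjusted p = 0.062 and 0.155). None of the 6 fits that left out 1 library called it either (edgeR adjusted p of 0.0665 to 0.362).

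The counts above stand beside the share of all 14547 genes called. Against isotype, 5 receptors rose with co-treatment, where 5.47% of genes were called higher and 4.41% lower. With IL-33, 4 receptors rose, where 1.46% of genes were called higher and 0.749% lower. With anti-Siglec-F the edgeR test called 0 receptors and 0% of genes higher. There 370 genes had an unadjusted p under 0.05, fewer than evenly spread p-values would give. DESeq2 called 12 genes and voom 10 in that comparison, and both called Tarm1 and Treml4. Because the list was chosen with these contrasts known, nothing is read from the receptors' shares. By position alone, 6 receptors lay above every isotype library with co-treatment (12% of genes did), 5 with IL-33 (11%) and 4 with anti-Siglec-F (6.73%). These 4 were Tarm1, Treml4, Ceacam1 and Sirpa. The median log2 fold change of the 10 receptors was 0.86 with co-treatment, 0.37 with IL-33 and 0.24 with anti-Siglec-F, beside -0.05, -0.01 and -0.01 over all genes tested.

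Co-treatment was also set against each single treatment. Against anti-Siglec-F alone, 3 receptors rose, where 2.70% of genes were called higher: Pilra by 1.55 ± 0.296, Tarm1 by 1.28 ± 0.229 and Treml4 by 1.21 ± 0.230 on the log2 scale (edgeR quasi-likelihood, adjusted p = 0.0124, 0.00832 and 0.0120). Each of the 3 calls was lost without anti-Siglec-F replicate 1 or 2, with edgeR adjusted p-values of at most 0.0721, 0.0586 and 0.0721. With co-treated replicate 1 as the single co-treated library, Pilra and Tarm1 were not called, with log2 fold changes of 0.87 and 1.19 (edgeR adjusted p = 0.282 and 0.0957). In that fit Treml4 and Ceacam1 were called, with 1.45 and 1.59 (edgeR adjusted p = 0.0273 and 0.0282), and replicate 1 was the highest co-treated library for both. Against IL-33 alone the edgeR test called 0 receptors and 0% of genes higher, with 2526 genes at an unadjusted p under 0.05 and 470 called by DESeq2. Tarm1 had the lowest unadjusted p of the receptors there, with a log2 fold change of 1.13 ± 0.228 (95% interval 0.64 to 1.62; edgeR adjusted p = 0.191), and DESeq2 called it (adjusted p = 0.00613). All 3 co-treated libraries exceeded all 3 IL-33 libraries for Tarm1, Cd300a and Sirpa, a pattern that 6.98% of genes showed. Against anti-Siglec-F alone 6 receptors were separated in this way, as were 10% of genes.

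The interaction term asks whether the effect of anti-Siglec-F was larger in the presence of IL-33 than without it. The edgeR test called 0 receptors and 0% of genes higher, 1150 genes had an unadjusted p under 0.05, and DESeq2 called 3. For Tarm1 the term was 0.03 on the log2 scale (95% interval -0.66 to 0.72), so the log2 changes of the single treatments, 1.26 and 1.10, added up closely to the 2.38 of the combination. For Treml4 it was -0.63 (95% interval -1.32 to 0.07), where the combination lay below the sum of 1.84 and 1.09. For Pilra it was 0.34 (95% interval -0.54 to 1.22), and for Ceacam1 -0.37 (95% interval -1.29 to 0.56). With co-treated replicate 1 as the single co-treated library, the term turned direction for Pilra (-0.35), Ceacam1 (0.26) and Tarm1 (-0.09), and was -0.40 for Treml4. The intervals include both 0 and changes of more than 0.5 log2 units, so neither additivity nor a departure from it was resolved.

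Markers of other cell types the sort could hold were measured beside these values. The 13 monocyte and macrophage markers summed to 1467 to 1996 CPM in co-treated libraries, 1313 to 1629 with IL-33, 971 to 1164 with anti-Siglec-F and 811.5 to 953 with isotype, in the same order of groups as Tarm1 and Treml4. Of the 11 that passed the filter, Csf1r and Slc40a1 were called with co-treatment over isotype and Csf1r with IL-33. The markers did not move as 1: with IL-33, 5 of the 11 had a positive log2 fold change and the median was -0.50, and with co-treatment 7 were positive with a median of 0.38. The largest parts of the sum were Csf1r and Adgre4. Adgre4 had 264 to 306 CPM in co-treated libraries and 208 to 254 with isotype and was not called. Slc40a1 and Vcam1 had lower levels but differed more between these groups. Slc40a1 had 108 to 341 CPM in co-treated libraries and 54.2 to 87.1 with isotype. Vcam1, which was not called, had 42.1 to 132 and 10.8 to 39. With IL-33, Cd68, C1qa, C1qb, C1qc, Cd5l and Ly6c2 had negative log2 fold changes, none of them called. Csf1r alone had 1066, 944 and 1052 CPM in co-treated libraries, against 424.5, 407 and 467 with isotype. C1qa was at most 2.8 CPM, Mertk at most 0.429 CPM and Marco at most 0.613 CPM in any library. The sums for dendritic cells were 464 to 609 CPM with co-treatment, 442 to 599.6 with IL-33, 416 to 818 with anti-Siglec-F and 353 to 575 with isotype. Those for neutrophils were 697 to 1778 CPM with co-treatment, 374 to 1449.9 with IL-33, 944 to 2069.9 with anti-Siglec-F and 849 to 2065 with isotype. None of the 10 neutrophil markers was called by edgeR, and 1 of the 6 dendritic cell markers tested, Batf3, was. Basophil and mast cell markers summed to 198.5 to 250.1 CPM with co-treatment, 156 to 229 with IL-33, 176 to 225 with anti-Siglec-F and 145 to 189 with isotype. T cell and ILC2 markers summed to at most 115 CPM, erythroid markers to at most 23.6 CPM and B and plasma cell markers to at most 1056 CPM in any library. The part of other cells in the receptor values was not tested.

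The receptors' closest relatives were measured too. Of 44 further receptors of these families, 38 were in the table and 25 passed the filter. With co-treatment over isotype, 6 of the 25 rose and none fell, with a median log2 fold change of 0.68, where 5.47% of all genes tested were called higher and 4.41% lower. They were Pilrb1, Pilrb2, Trem1, Trem3, Lair1 and Milr1. With IL-33, 4 of the 25 rose (Pilrb1, Pilrb2, Trem1 and Trem3) and 1 fell, with a median of 0.14, where 1.46% of all genes were called higher and 0.749% lower. The medians over all genes tested were -0.05 and -0.01. The gene that fell was Cd200r3, an activating relative of Cd200r1 known from basophils and mast cells, with 1.24, 0.944 and 1.19 CPM with IL-33 and 2.81, 2.44 and 4.39 with isotype (log2 fold change -1.50, edgeR adjusted p = 0.0350). With anti-Siglec-F none of the 25 was called by edgeR, their median was 0.37 beside -0.01 over all genes, and 22 of the 25 were positive. In the 6 fits that left out 1 library, all 6 co-treatment calls were kept each time, whereas the IL-33 calls were kept in 2 fits for Pilrb1 (without IL-33 replicate 3 or isotype replicate 2), in 1 each for Pilrb2, Trem1 and Trem3 (without IL-33 replicate 3) and in 0 for Cd200r3, with edgeR adjusted p-values of up to 0.133, 0.139, 0.208, 0.129 and 0.218. With co-treated replicate 1 as the single co-treated library, Milr1 had an edgeR adjusted p of 0.0519 and the other 5 were called.

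Pilrb1 and Pilrb2 are the activating partners of Pilra and lie in the same gene cluster on chromosome 5. Pilrb1 had 207, 276 and 418 CPM in co-treated libraries, 219.6, 260.1 and 200.6 with IL-33, 99.9, 125 and 155 with anti-Siglec-F, and 82.5, 125 and 97.6 with isotype. Its log2 fold change was 1.56 ± 0.252 with co-treatment (edgeR quasi-likelihood, adjusted p = 0.00194) and 1.16 ± 0.250 with IL-33 (edgeR quasi-likelihood, adjusted p = 0.0282). Pilrb2 had 171, 248 and 310.5 CPM in co-treated libraries, 165, 174 and 159 with IL-33, 80.4, 101 and 130.2 with anti-Siglec-F, and 62.5, 94.6 and 82.8 with isotype. For both, all co-treated and all IL-33 libraries lay above the isotype libraries, as for Pilra, so the inhibitory and the activating genes of the pair were higher in the same libraries. Pilrb2 and Pilrb1 were also the genes whose log2 CPM tracked Pilra most closely, with Pearson r of 0.985 and 0.970 over the 12 libraries among 8644 genes, followed by Asb2 with 0.962. The coding sequences of Pilra and Pilrb2 were 85.5% identical over 677 aligned bases, those of Pilra and Pilrb1 83.8% over 674, and 3.32% and 4.19% of windows of 50 bases were shared. Pilrb1 and Pilrb2 were 93.5% identical over 678 aligned bases and shared 28.2% of such windows. The split of counts between Pilrb1 and Pilrb2 is therefore uncertain, and their rises are not separate observations. Reads from shared windows cannot be assigned between these genes, and 15.1% of the Pilra exonic bases also overlap Zcwpw1 on the other strand.

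On chromosome 17, Trem1, the DAP12-coupled amplifier of inflammatory signals, had 88.1, 51.1 and 80.0 CPM in co-treated libraries, 65.9, 63.4 and 25.1 with IL-33, 27.5, 39.8 and 62.9 with anti-Siglec-F, and 14.6, 16.3 and 21.6 with isotype. As for its neighbour Treml4, every treated library exceeded every isotype library. Trem3, a mouse gene of the same cluster, had 21.7, 28.2 and 30.9 CPM in co-treated libraries, 15, 22.3 and 12.2 with IL-33, 6.29, 10.7 and 13.5 with anti-Siglec-F, and 5.61, 7.75 and 5.41 with isotype. The log2 fold change with co-treatment was 2.07 for Trem1 and 2.10 for Trem3 (edgeR quasi-likelihood, adjusted p = 0.00391 and 0.00104), close to the 2.30 of Treml4.

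**Figure D4:**
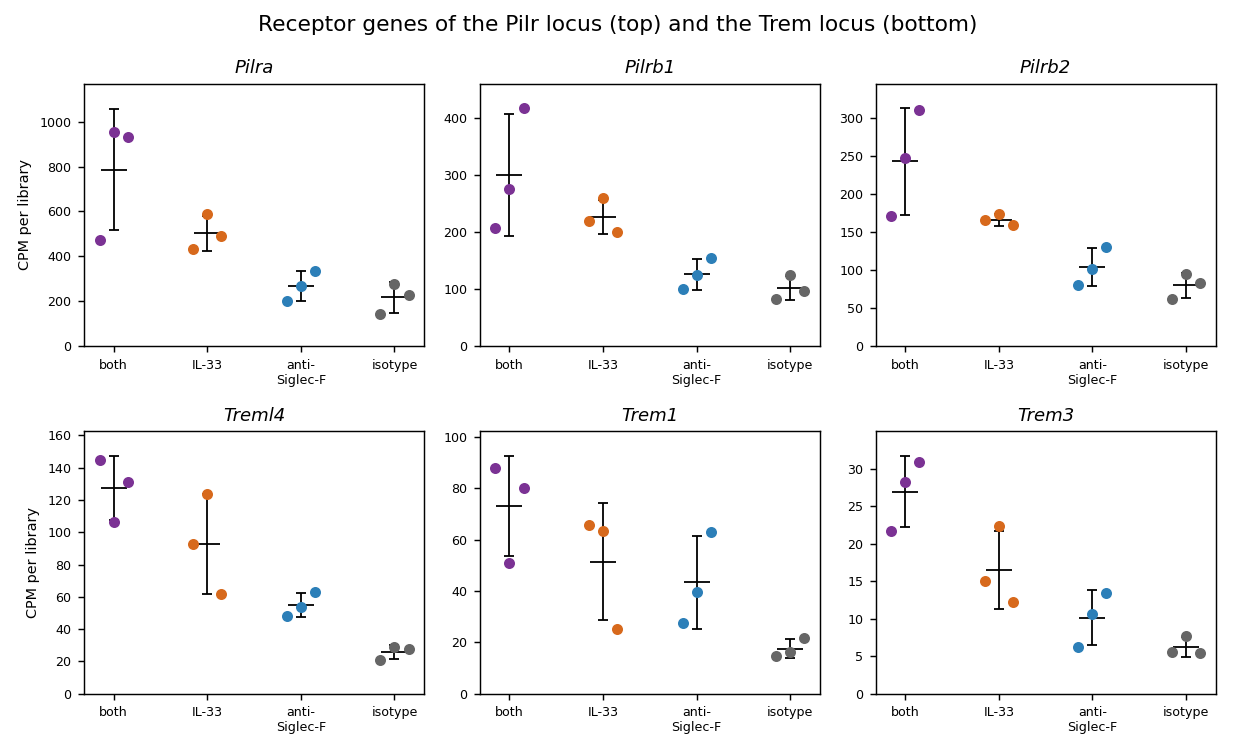
CPM in every library (points) with group mean and SD (bars) for Pilra, Pilrb1 and Pilrb2 on chromosome 5 (top) and Treml4, Trem1 and Trem3 on chromosome 17 (bottom); groups from left to right are co-treated, IL-33, anti-Siglec-F and isotype. In both clusters the co-treated libraries lay above all isotype libraries, with Treml4 at 106 to 145 CPM over 20.9 to 29.1 CPM.

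Other relatives were measured beside their partners. Lilr4b, the gp49A neighbour of Lilrb4a, had 1116, 415 and 1511 CPM in co-treated libraries, 1216, 959 and 733 with IL-33, 759.9, 844 and 830 with anti-Siglec-F, and 998, 663 and 725 with isotype. It was low in the same co-treated replicate 2 as Lilrb4a, and its coding sequence is 96.0% identical to that of Lilrb4a with 27.6% of 50-base windows shared, so the 2 genes' counts are uncertain. The table also lists a model, Gm49339, that covers 35.3% of the Lilrb4a exonic bases on the same strand and has 0 counts. Pira2, an activating partner of Pirb, had a log2 fold change of 0.28 ± 0.282 with co-treatment (edgeR quasi-likelihood, adjusted p = 0.574). Pirb shares 20.7% of its 50-base windows with Pira2 and 14.5% with Lilra6, and Ceacam1 shares 39.2% with Ceacam2, which had 0 CPM in the isotype libraries. Cd300ld and Cd300lb, relatives of Cd300a, had log2 fold changes of 0.64 and 0.24 with co-treatment (edgeR, adjusted p = 0.0553 and 0.406). Cd300ld had 411 to 562 CPM in co-treated libraries and 275.5 to 327 with isotype, so its groups did not overlap, and its fold change was as large as the 0.60 of Cd300a. Lair1, an ITIM collagen receptor, had 76.3, 70.2 and 81.9 CPM in co-treated libraries, against 25.9, 30.8 and 40.2 with isotype (log2 fold change 1.24, edgeR adjusted p = 0.00336). Fcgr2b, the inhibitory IgG receptor, did not pass the test (0.42, edgeR adjusted p = 0.184).

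Among 17 adaptors and effectors of these receptors, 6 rose with co-treatment, 2 with IL-33 and 0 with anti-Siglec-F over isotype by edgeR, and none fell, where 5.47%, 1.46% and 0% of all genes tested were called higher. Fcer1g, which encodes the FcRγ adaptor of Tarm1 and Pira proteins, had 645, 1079.9 and 1213 CPM in co-treated libraries, 568, 655 and 354 with IL-33, 479.6, 358 and 583 with anti-Siglec-F, and 367, 463 and 411 with isotype. The co-treated libraries all lay above isotype (log2 fold change 1.24 ± 0.271, edgeR quasi-likelihood, adjusted p = 0.0124), but with co-treated replicate 1 as the single co-treated library it was 0.69 and not called (edgeR adjusted p = 0.263), and without isotype replicate 1 or 3 the call was lost too, at up to 0.0659. Tyrobp, which encodes the DAP12 adaptor of Treml4 and Trem1, had 682, 1191 and 1703.5 CPM in co-treated libraries, 688, 634 and 496 with IL-33, 827, 567 and 984 with anti-Siglec-F, and 780.4, 810.5 and 718 with isotype. It overlapped isotype with co-treatment (edgeR adjusted p = 0.171), and the 2 high values came from the 2 libraries that stood apart. The phosphatase genes differed: Ptpn6, for SHP-1, rose by 0.77 ± 0.168 on the log2 scale with co-treatment (edgeR quasi-likelihood, adjusted p = 0.0125), while Inpp5d, for SHIP-1, stood at -0.15 on the same scale (edgeR, adjusted p = 0.626). The Src-family kinase gene Fgr rose by 0.88 with co-treatment and by 0.75 with IL-33 on the log2 scale (edgeR adjusted p = 0.0021 and 0.0134). Pik3ap1, an adaptor of PI3-kinase, rose by 1.44 with co-treatment and by 1.62 with IL-33 (edgeR adjusted p = 0.0128 and 0.0163). Without isotype replicate 1 the Ptpn6 call was lost (edgeR adjusted p = 0.0617), as was the co-treatment call of Pik3ap1 without isotype replicate 2 (0.0543). With IL-33, Fgr lost its call without IL-33 replicate 1 or isotype replicate 1 or 3, and Pik3ap1 without IL-33 replicate 1 or any 1 isotype library (edgeR adjusted p of up to 0.0797 and 0.0957). Without co-treated replicate 1 the co-treatment log2 fold change of Pik3ap1 was 0.88. With that replicate as the single co-treated library, Ptpn6 had 0.77 and was not called, while Fgr (0.93) and Pik3ap1 (2.20) were (edgeR adjusted p = 0.0803, 0.0152 and 0.000459). Of the ligand and partner genes, 9 of 11 passed the filter, and B2m, the light chain of MHC class I, was called with co-treatment (log2 fold change 0.78, edgeR adjusted p = 0.0357), a call kept in 1 of 6 fits that left out 1 library, the one without co-treated replicate 1. With that replicate as the single co-treated library, B2m had 0.38 (edgeR adjusted p = 0.496). Cd47, the ligand of Sirpa, had a difference of 0.35 log2 units at an adjusted p of 0.151 and Cd200, the ligand of Cd200r1, had -0.75 at 0.703, so neither was called by edgeR.

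Pearson correlations of log2 CPM, given as a description since the libraries share 4 groups, were 0.875 between Tarm1 and Treml4, 0.864 between Cd300a and Pilra and 0.861 between Ceacam1 and Tarm1. They were -0.44 between Pirb and Pilra, -0.38 between Pirb and Treml4 and -0.10 between Lilrb4a and Pilra. The genes most like Treml4 were Slc11a1 (0.967), Il1a (0.963) and Il1rn (0.962). Those most like Ceacam1 were Eif5 (0.982), Slc25a25 (0.982) and Adam17 (0.958). Tarm1 was most like Pmpca (0.969), Azin1 (0.966) and Kpna2 (0.964), and Cd300a most like Ube2n (0.960), Chtop (0.956) and Tmbim4 (0.946).

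Promoter sequences are printed for the 4 receptors called higher over isotype both with IL-33 and with co-treatment. Their levels did not all track each other closely: Pearson r went from 0.581 (Pilra and Ceacam1) to 0.875 (Tarm1 and Treml4). Joint regulation was not tested. Each window runs from 250 bases before to 50 bases after the gene start, 300 bases in all, in RefSeq's GRCm38.p6 annotation, gene strand, 5′ to 3′. Capitals mark GAGGAA or its reverse complement, the core letters recognised by PU.1, a myeloid transcription factor.
Pilra (chr5:137836229-137836528, minus strand): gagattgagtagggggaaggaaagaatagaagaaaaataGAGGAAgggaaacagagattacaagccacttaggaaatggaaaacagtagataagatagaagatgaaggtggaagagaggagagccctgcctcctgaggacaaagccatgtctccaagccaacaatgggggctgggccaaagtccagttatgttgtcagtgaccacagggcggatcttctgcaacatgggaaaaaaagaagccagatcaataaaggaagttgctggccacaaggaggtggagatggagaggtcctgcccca
Ceacam1 (chr7:25477576-25477875, minus strand): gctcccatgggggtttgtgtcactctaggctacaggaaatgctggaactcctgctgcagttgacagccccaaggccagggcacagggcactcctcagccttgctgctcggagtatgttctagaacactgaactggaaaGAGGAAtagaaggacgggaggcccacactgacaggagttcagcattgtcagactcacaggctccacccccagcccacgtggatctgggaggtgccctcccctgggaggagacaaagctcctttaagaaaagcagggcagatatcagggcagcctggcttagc
Tarm1 (chr7:3502575-3502874, minus strand): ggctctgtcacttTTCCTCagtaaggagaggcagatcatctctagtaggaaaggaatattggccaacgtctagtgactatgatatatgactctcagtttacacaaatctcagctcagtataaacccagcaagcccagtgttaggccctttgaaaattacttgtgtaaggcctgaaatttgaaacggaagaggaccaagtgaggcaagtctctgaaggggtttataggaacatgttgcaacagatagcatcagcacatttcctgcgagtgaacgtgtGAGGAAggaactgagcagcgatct
Treml4 (chr17:48264045-48264344, plus strand): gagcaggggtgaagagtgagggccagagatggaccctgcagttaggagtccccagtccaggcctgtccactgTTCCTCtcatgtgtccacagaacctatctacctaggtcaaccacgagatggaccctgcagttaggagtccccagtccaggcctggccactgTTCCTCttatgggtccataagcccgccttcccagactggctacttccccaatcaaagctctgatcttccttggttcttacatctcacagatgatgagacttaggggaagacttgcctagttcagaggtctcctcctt

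Windows were found for 7 of the 10 receptors, and all 7 held GAGGAA on at least 1 of the 2 strands, as did 28.3% of the 32851 promoters of the same length in the table. Tarm1, Pirb and Cd300lf held it on both strands. Pirb and Cd300lf were not called in any comparison, so the match does not set the called receptors apart. In Pilra the match began 211 bases before the start and in Ceacam1 112 bases before. In Treml4 there were 2, at 178 and 87 bases before the start, both read on the opposite strand. Of the 5 other motifs searched on both strands, GATAA was found in 1 of the 7 (25.4% of all promoters), TTGCNNAA in 2 (10.8%), the NF-kB motif in 1, Cd300a (4.51%), and TGANTCA and TTCNNNGAA in 0 (7.81% and 8.30%). TTCNNNGAA ends in the letters GAA, as GAGGAA does. A match describes letters in this window and shows no binding.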

How the data were processed

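RNA of 12 libraries was sequenced after library preparation with the NEBNext Ultra kit, per the labels' protocols. The submitters' processing notes name the mm10 build, featureCounts 1.5.0-p3, STAR 2.6.1d, fastp, DESeq2 and FastQC 0.11.8. The authors deposited raw read counts per gene, with gene length and position in other columns. Annotation release and strand setting were not given in the sources used here. A deposited normalized table was not used here. The raw counts were analysed in R 4.3.3 with edgeR 4.0.16 (TMM, filterByExpr by group, 14547 genes kept, 1 quasi-likelihood fit of all 12 libraries, 3 per group, no block, Benjamini-Hochberg adjustment within a comparison, threshold 0.05). Alternatives used DESeq2 1.42.0, limma 3.58.1 voom with quality weights, other filters, size factors, a replicate block, and left-out libraries. The code was first checked on counts with known answers. CPM used TMM-scaled library sizes. Total counts of 11686603 to 17137988 set the precision, and p-values cover the spread between libraries.

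The receptors, related lists, markers and tests were chosen with earlier results of these data known. All 10 receptors are named. Of each other list, up to 4 called genes per comparison with the largest change are named, besides a fixed set of relatives, adaptors and ligands. Lilr4b, the present symbol nearest to a listed name that had no match, was chosen after its values were seen, as were other genes named beyond this rule. For likeness, 3 genes per called receptor were named.

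Whether the labels' replicate numbers pair libraries is not known, and the fit reported uses no block. Same-numbered IL-33 and isotype libraries deviated together weakly (correlations 0.241, 0.239 and 0.167, all over the 0.1 set as threshold). In each other comparison at least 1 pair stayed under 0.1, though replicate 1 of anti-Siglec-F and isotype reached 0.27. Correlations between libraries with different numbers were not computed, so these values do not establish pairing. Coding sequences came from GENCODE release 21 and promoters from RefSeq.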

Additional observations from a re-analysis of the deposited data

How the results depend on the processing

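Across the alternatives other than single left-out libraries, the 12 receptor calls were refitted 100 times: 94 kept direction and call, 6 kept direction and lost the call, and none reversed. With 1 library left out, 49 of 72 refits kept the call and 23 lost it. Of the 48 receptor values not called, 21 of 380 refits were called under another setting, and 4 of 348 with 1 library left out. The causes were not tested.

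With anti-Siglec-F over isotype, where edgeR called 0 receptors and 0 genes, Tarm1 and Treml4 made 2 receptors under DESeq2 (12 genes), without the expression filter (70 genes), under voom (10 genes) and with only these groups fitted (20 genes); 1 gene was called without co-treated replicates 2 and 3, a fit that leaves 1 co-treated library. Without those replicates co-treatment over isotype gave 3 receptors and 651 genes, co-treatment over anti-Siglec-F 220 genes and IL-33 over isotype 688 genes, against 1437, 643 and 322 in the fit reported. DESeq2 called 806 genes with IL-33 over isotype and 2404 with co-treatment over isotype. It called 5 receptors and 1627 genes with co-treatment over anti-Siglec-F, 1 receptor and 470 genes with co-treatment over IL-33, and 3 genes for the interaction. Without the filter the counts were 683 with IL-33, 1600 with co-treatment over anti-Siglec-F, 2 receptors and 786 genes with co-treatment over IL-33, and 86 for the interaction. Voom gave 2089 with IL-33 and 424 with co-treatment over anti-Siglec-F. With only the groups compared, co-treatment gave 738 over isotype and 242 over anti-Siglec-F.

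With the replicate block over all libraries, 4 receptors were called with IL-33 over isotype, 6 with co-treatment over isotype and 4 with co-treatment over anti-Siglec-F, by adding Cd200r1 and Ceacam1. In the same fit 364, 1459 and 642 of the 14547 genes tested were called in these comparisons. A block with only the IL-33 and isotype groups, chosen after seeing the data, called 5 receptors and 1235 genes. In the other comparisons not every same-numbered pair correlated above 0.1.

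Leaving out 1 library at a time gave 1 to 3 receptors and 116 to 488 genes with IL-33 over isotype, and 4 to 5 and 515 to 2916 with co-treatment over isotype. It gave 0 to 2 and 0 to 2116 with co-treatment over IL-33, 0 to 4 and 124 to 2839 with co-treatment over anti-Siglec-F, 0 and 0 with anti-Siglec-F over isotype, and 0 receptors and 0 to 4 genes for the interaction. With 3 libraries a group, a value that missed the threshold does not show that levels were equal, and Cd200r1 was the receptor with the fewest counts.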
